A study of Mus musculus with 11 samples.

Results

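The genes described here are 9 transcripts induced by type I interferon, chosen by gene symbol as Ifit1, Ifit3, Irf7, Irf9, Isg15, Bst2, Oasl2, Ifi27 and Usp18. Each symbol named 1 row of the count table, so the set holds 9 of its 54532 genes. They were measured in RNA from dissected lateral habenula (LHb) tissue, a small epithalamic region that signals aversive outcomes, in a study of arthritis and depression-like behaviour. The 11 libraries fell into 4 groups of 3-month-old BALB/c mice: 3 female and 3 male libraries with collagen antibody-induced arthritis (CAIA), set against 3 female and 2 male vehicle controls. CAIA mice were given a cocktail of 5 monoclonal antibody clones against type II collagen at 50 mg/kg, and then lipopolysaccharide (LPS) at 1 mg/kg 3 days later, both into the peritoneum. Controls received vehicle only, so antibody, LPS and arthritis cannot be told apart, and no label gives the interval between LPS and tissue collection. The labels do not tie libraries to separate animals, so the p-values below speak only of the spread among libraries, which may be technical.

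Type I interferons are cytokines that most cells can make when their sensors meet microbial products, and LPS, acting through the receptor TLR4, is one of these products. Binding to the receptor IFNAR1/IFNAR2 activates the kinases JAK1 and TYK2, after which STAT2 is phosphorylated and joins IRF9 in the complex ISGF3. ISGF3 binds interferon-stimulated response elements (ISREs) in promoters and switches on antiviral effectors, while brain cells keep a low level of many of these transcripts without any infection. IRF9 is the DNA-binding part of ISGF3 and IRF7 amplifies interferon production. ISG15 is a ubiquitin-like protein that is attached to other proteins, and USP18 removes it and also restrains the receptor. IFIT1 and IFIT3 are RNA-binding and adaptor proteins with tetratricopeptide repeats. OASL2 belongs to the oligoadenylate synthetase family, BST2 (tetherin) holds budding virions at the cell surface, and IFI27 is a small hydrophobic interferon-induced protein.

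The promoters are shown because the ISRE is the feature that defines this response. RefSeq promoter windows on GRCm38.p6, from 250 bases before to 50 bases after the annotated start, were found for 7 of the 9 genes, with Ifi27 and Usp18 unmatched. The ISRE core searched was GAAANNGAAA on either strand (N is any base), overlapping matches included. It was present in the windows of 4 of the 7 genes, Isg15, Bst2, Ifit1 and Ifit3, and in 3.99% of the 27025 genes with a window. Of the other interferon-stimulated genes listed for this work, 13 of 34 with a window held it. The windows of Irf7, Irf9 and Oasl2 did not hold these letters. The windows lie at chr4:156200769-156201068 (minus strand) for Isg15, chr8:71537423-71537722 (minus strand) for Bst2, chr19:34583279-34583578 (plus strand) for Ifit3 and chr19:34640639-34640938 (plus strand) for Ifit1. They are printed along the strand of the gene, with the matches in capitals.
Isg15: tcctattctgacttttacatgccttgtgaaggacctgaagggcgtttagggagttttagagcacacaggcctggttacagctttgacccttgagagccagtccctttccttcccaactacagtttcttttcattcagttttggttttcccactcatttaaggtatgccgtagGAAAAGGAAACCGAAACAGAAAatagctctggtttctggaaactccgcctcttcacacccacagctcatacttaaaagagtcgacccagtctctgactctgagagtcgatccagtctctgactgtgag
Bst2: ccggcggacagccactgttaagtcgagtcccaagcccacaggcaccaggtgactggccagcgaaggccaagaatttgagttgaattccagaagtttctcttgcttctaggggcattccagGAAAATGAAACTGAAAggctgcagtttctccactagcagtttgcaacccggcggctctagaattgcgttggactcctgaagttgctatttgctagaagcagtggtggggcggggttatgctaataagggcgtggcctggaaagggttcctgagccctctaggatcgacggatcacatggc
Ifit3: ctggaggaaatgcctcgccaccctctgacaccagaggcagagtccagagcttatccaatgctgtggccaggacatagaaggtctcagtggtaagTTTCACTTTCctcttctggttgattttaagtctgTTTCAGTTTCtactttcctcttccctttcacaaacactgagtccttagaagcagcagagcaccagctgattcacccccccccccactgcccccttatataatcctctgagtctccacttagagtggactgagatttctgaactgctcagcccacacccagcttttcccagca
Ifit1: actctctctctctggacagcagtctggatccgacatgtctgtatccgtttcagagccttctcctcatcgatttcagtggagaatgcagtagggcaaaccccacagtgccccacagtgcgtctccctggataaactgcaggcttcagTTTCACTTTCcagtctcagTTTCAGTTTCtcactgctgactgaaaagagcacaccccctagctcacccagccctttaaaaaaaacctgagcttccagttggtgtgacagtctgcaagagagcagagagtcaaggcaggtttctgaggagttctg
In Isg15, 3 overlapping matches form 1 run that begins 78 bases before the start and ends 57 bases before it, and in Bst2 a run of 2 lies between 130 and 115 bases before the start. Ifit3 and Ifit1 each hold 2 separate matches on the opposite strand. The nearer match spans 122 to 113 bases before the start in Ifit3 and 85 to 76 bases before it in Ifit1.

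The libraries held 25317306 to 29565006 counts, and all 9 genes had enough counts to be tested among the 19619 genes of the fit. Marker genes of the lateral habenula were present in every library, with summed levels of 1186 to 1386 CPM in CAIA and 1087 to 1426 CPM in controls (CPM, the count scaled to a common library size with TMM factors). The tissue also held medial habenula markers, at 1643 to 2106 CPM in CAIA and 1565 to 2137 CPM in controls, so the values are those of the dissection. The epithelium of the choroid plexus, which lies beside the habenula, had the widest gap among the marker lists. Its 14 markers summed to 247 to 2123 CPM in CAIA and 2717 to 5647 CPM in controls, and the ranges of the CAIA and control libraries were apart for each of the 14. Meningeal fibroblast markers summed to 62.7 to 98.5 CPM in CAIA and 75.8 to 123 CPM in controls, with 2 of 8 lower in edgeR at an adjusted p of 0.05. Within females these sums were at 65.2 to 72.7 CPM in CAIA and 96.8 to 123 CPM in controls, without overlap. In that sex 8 of 8 were below 0 (50.4% of all genes), and 7 were lower at an unadjusted p under 0.05 in edgeR (4.06% of all genes). The part of these markers in the female values was not tested. Summed homeostatic microglia markers were at 232 to 257 CPM in CAIA and 204 to 266 CPM in controls, and summed endothelial markers at 281 to 326 CPM in CAIA and 299 to 345 CPM in controls. Within males the microglia markers were at 232 to 249 CPM in CAIA and 204 to 228 CPM in controls, and astrocyte markers at 2764 to 2871 CPM in CAIA and 2181 to 2511 CPM in controls, without overlap in either. Their part in the male values below was not tested. Pineal markers were at 58.3 CPM in female CAIA replicate 2 and 62.0 CPM in male CAIA replicate 3, and at 14.6 to 30.9 CPM in the other libraries. Of 9 hippocampus and cortex markers none passed in males in edgeR, but 8 were above 0, with a median log2 fold change of 1.34. At an unadjusted p under 0.05, 5 were higher, against 614 of all 19619 genes. DESeq2 called 3 higher, against 39 of 35250 genes. These markers summed to 989 to 1350 CPM in male CAIA and 983 to 1178 CPM in male controls, and their part in the male values was not tested either. Of 10 blood leukocyte markers, 7 had too few counts to be tested, and the neutrophil marker Ly6g had no count in any library.

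In CAIA against control tissue, no member of the set was called higher, and 1, Ifi27, was called lower. Averaged over the sexes with equal weight, Ifi27 in CAIA was at 68.0% of its control level (95% interval 58.3 to 79.4%). That is 1 of 9 genes called lower at an adjusted p of 0.05, against 0.576% of all genes tested, and 0.596% in either direction (edgeR's quasi-likelihood test, Benjamini-Hochberg adjustment). No member was called higher, where 0.0204% of all genes were (0 higher at an unadjusted p under 0.05, and 0 higher in DESeq2). The median log2 fold change of the 9 was -0.23, beside a median near 0 for all genes tested, with 6 of the 9 below 0 against 50.0% of all genes.

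Ifi27 (ENSMUSG00000064215, chr12:103434211-103440239, plus strand, GRCm38) was the most abundant member per length, at 12.7 ± 3.09 CPM per kilobase of exon (SD over the 11 libraries). It stood at 12.7, 16.1 and 14.8 CPM in the female CAIA libraries, against 19.5, 21.4 and 28.2 CPM in the female controls. In males it stood at 14.6, 17.1 and 16.5 CPM in CAIA, against 23.6 and 20.3 CPM in controls. Every CAIA library lay below every control, and over both sexes no other member showed this in either direction. Of all genes tested, 1.01% lay lower without overlap in this way and 0.168% higher, and 6.39% lay lower without overlap in females. The log2 fold change was -0.56 ± 0.10 (SE, adjusted p = 0.0254 in edgeR), from 358 to 462 counts per CAIA library and 500 to 827 per control. In females it was -0.66 ± 0.14 (edgeR adjusted p = 0.0795) and in males -0.45 ± 0.15 (edgeR adjusted p = 0.693), and neither passed. Without female control replicate 1 it passed in females (edgeR adjusted p = 0.0397). DESeq2 called it in females (adjusted p = 0.00328) and not in males (adjusted p = 0.402). Leaving out single libraries kept the log2 fold change between -0.61 and -0.47. The adjusted p rose above the threshold without female CAIA replicate 1 (0.0843), female CAIA replicate 3 (0.0724), male CAIA replicate 1 (0.0620), male CAIA replicate 3 (0.0768) or male control replicate 1 (0.114). None of the 50-base stretches of its GENCODE M21 transcripts occurred in transcripts of another gene.

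Over both sexes all 14 choroid plexus markers were below 0. Of these, 6 were called lower in edgeR (0.576% of all genes) and 13 in DESeq2 (191 of 35250 genes). Ttr, the transthyretin gene, did not pass in edgeR (log2 fold change -4.32 ± 0.71, edgeR adjusted p = 0.0620), though its CAIA libraries all lay below the controls. With single CAIA libraries left out, Ttr passed in edgeR without male replicate 1 (edgeR adjusted p = 0.0172) or male replicate 2 (edgeR adjusted p = 0.00601), and not without the others. Ttr was at 29.2, 27.04 and 29.8 CPM in female CAIA and 1469, 1996 and 3289 CPM in female controls, with 65.6, 1188 and 305 CPM in male CAIA and 2704 and 2577 CPM in male controls. The female control with the highest Ttr, replicate 3, also had the highest Ifi27. Female CAIA replicate 2 had the lowest Ttr of all libraries and the highest Ifi27 of the female CAIA libraries. The 3 female CAIA values of Ttr lay close together, however. The 14 markers summed to 247, 267 and 256 CPM in female CAIA replicates 1, 2 and 3, highest in replicate 2. In male controls they summed to 4264 and 4499 CPM in replicates 1 and 3, with Ifi27 at 23.6 and 20.3 CPM. Among the male CAIA libraries Ttr spread widely, with Ifi27 at 17.1 CPM in the library with the most Ttr and 14.6 CPM in that with the least. In bulk tissue fewer cells of a type and less RNA per cell cannot be told apart, and the part of the choroid plexus and of the meninges in the Ifi27 result was not tested. The other 8 members summed to 25.8 to 30.4 CPM in CAIA and 27.7 to 34.6 CPM in controls, so the sums overlapped once Ifi27 was set aside. Irf9 was the largest part, at 13.3 to 16.3 CPM in CAIA and 13.2 to 17.3 CPM in controls, so the sum says little of the less abundant members. Within males this sum was at 25.8 to 27.2 CPM in CAIA, below the 28.8 to 29.0 CPM of the controls, while in females it overlapped. Such separation held for 8.51% of single genes in males, and the share for sums of genes was not computed. Ifi27 made up 32.2 to 38.6% of the summed counts of the set in CAIA libraries and 41.2 to 44.9% in controls.

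**Figure D1:**
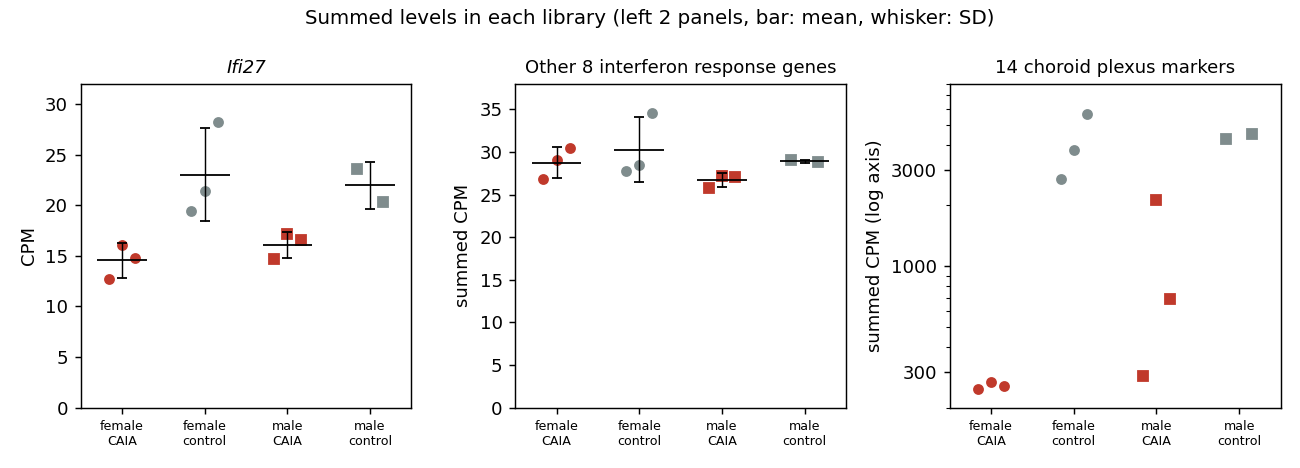
Level in each library (points) of Ifi27 in CPM (left), of the other 8 interferon response genes in summed CPM (middle) and of 14 choroid plexus markers in summed CPM on a log axis (right), by sex and treatment. CAIA libraries are red, controls grey, females circles and males squares; in the left and middle panels bars are means and whiskers SD. For Ifi27 and for the choroid plexus markers the CAIA libraries all lie below the controls, while the sums of the other 8 genes overlap over both sexes and in females, but not in males. Irf9 is the largest part of the sums in the middle panel.

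Among the transcription factors, Irf9 (ENSMUSG00000002325, chr14:55603571-55610030, plus strand) had the value closest to 0 of the whole set. It was at 14.3, 16.3 and 15.9 CPM in female CAIA and 14.7, 13.4 and 17.3 CPM in female controls, with 13.3, 13.9 and 14.02 CPM in male CAIA and 13.2 and 14.6 CPM in male controls. Its log2 fold change over both sexes was 0.01 ± 0.09 (SE), with a 95% interval of -0.17 to 0.19, the narrowest of the set beside 336 to 509 counts per library. Irf7 (ENSMUSG00000025498, chr7:141262706-141266481, minus strand) was at 2.70, 3.17 and 3.92 CPM in female CAIA and 3.66, 3.65 and 3.98 CPM in female controls, with 2.96, 4.04 and 2.69 CPM in male CAIA and 4.03 and 3.69 CPM in male controls. The controls lay close together, while the CAIA libraries spread more widely and overlapped them. The means were 3.25 ± 0.595 CPM in CAIA (SD, n = 6) and 3.80 ± 0.187 CPM in controls (n = 5). Its log2 fold change of -0.23 ± 0.15 did not pass (edgeR adjusted p = 0.882). It was -0.21 ± 0.20 in females and -0.26 ± 0.22 in males, and with single libraries left out it lay between -0.36 and -0.080 in females and between -0.46 and -0.14 in males.

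The ISG15 pair had the lowest counts, 18 to 63 per library for Isg15 and 17 to 42 for Usp18, and the widest intervals. Isg15 (ENSMUSG00000035692, chr4:156199424-156200818, minus strand), whose promoter carries the run of 3 ISRE cores, was at 0.889, 1.15 and 1.44 CPM in female CAIA and 1.21, 1.22 and 1.29 CPM in female controls, with 1.54, 0.707 and 1.26 CPM in male CAIA and 2.37 and 1.27 CPM in male controls. Male control replicate 1 stood alone at the top, and the remaining libraries overlapped. The log2 fold change over both sexes was -0.36 ± 0.25, with an interval of -0.89 to 0.16. It was -0.11 without male control replicate 1 and -0.55 without male control replicate 3. Usp18 (ENSMUSG00000030107, chr6:121245906-121270917, plus strand) was at 0.783, 0.942 and 0.859 CPM in female CAIA and 0.973, 0.825 and 1.43 CPM in female controls, with 1.34, 1.22 and 0.755 CPM in male CAIA and 0.640 and 0.941 CPM in male controls. The female libraries overlapped, and so did the male ones. Usp18 averaged 0.983 ± 0.242 CPM in CAIA (SD, n = 6) and 0.962 ± 0.293 CPM in controls (n = 5). Its log2 fold change of 0.07 ± 0.25 had an interval of -0.46 to 0.60. Counting error alone gives a coefficient of variation of 16.8% for Isg15 and 19.4% for Usp18 at their mean counts, and the spread within groups was 30.8% and 26.0%. Such errors cover reads, not molecules.

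Of the IFIT genes, which lie close together on chromosome 19, Ifit1 (ENSMUSG00000034459, chr19:34640871-34650009, plus strand) was at 1.74, 1.71 and 2.13 CPM in female CAIA and 1.595, 2.24 and 2.01 CPM in female controls, with 1.815, 1.53 and 1.65 CPM in male CAIA and 1.62 and 2.17 CPM in male controls. High and low libraries stood on both sides, and its log2 fold change was -0.13 ± 0.17 (interval -0.49 to 0.24). It was -0.0022 without male control replicate 3 and -0.23 without male control replicate 1. Ifit3 (ENSMUSG00000074896, chr19:34583531-34588731, plus strand) was the member with the largest positive value, 0.40 ± 0.22, which did not pass (edgeR adjusted p = 0.853) and was 0.21 without male CAIA replicate 3. It was at 2.63, 2.13 and 1.82 CPM in female CAIA and 1.52, 2.04 and 2.21 CPM in female controls, with 1.58, 1.57 and 3.02 CPM in male CAIA and 1.505 and 1.19 CPM in male controls. The male groups did not overlap, which held for 9.18% of all genes in this direction, but replicates 1 and 2 of male CAIA lay close above the higher control. Ifit3 shares 51.2% of its 50-base stretches with the neighbouring copy Ifit3b, so reads may be split between them. Ifit3b was at a log2 fold change of -0.07 ± 0.18, and Ifit3 itself at 0.19 ± 0.28 in females and 0.61 ± 0.33 in males, where it was 0.22 without male CAIA replicate 3. Ifit1 shares 7.13% of its stretches, mainly with Ifit1bl2, and the other members shared under 4%.

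Bst2 and Oasl2 had negative values that did not pass. Bst2 (ENSMUSG00000046718, chr8:71534255-71537456, minus strand) was at 1.81, 1.67 and 2.82 CPM in female CAIA and 2.295, 2.396 and 2.83 CPM in female controls, with 1.70, 1.96 and 2.08 CPM in male CAIA and 3.27 and 2.89 CPM in male controls. The male groups did not overlap, which held for 8.51% of all genes in this direction, while in females CAIA replicate 3 lay among the controls. Over both sexes the log2 fold change was -0.47 ± 0.17 (unadjusted p = 0.0154, edgeR adjusted p = 0.542). Oasl2 (ENSMUSG00000029561, chr5:114896936-114912234, plus strand) was at 1.99, 1.92 and 1.48 CPM in female CAIA and 1.83, 2.71 and 3.51 CPM in female controls, with 1.58, 2.24 and 1.62 CPM in male CAIA and 2.37 and 2.03 CPM in male controls. Its log2 fold change was -0.43 ± 0.20 (unadjusted p = 0.0445, edgeR adjusted p = 0.773), and the groups overlapped in both sexes. With Ifi27 these made 3 of 9 members lower at an unadjusted p under 0.05, where 3.92% of all genes were.

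**Figure D2:**
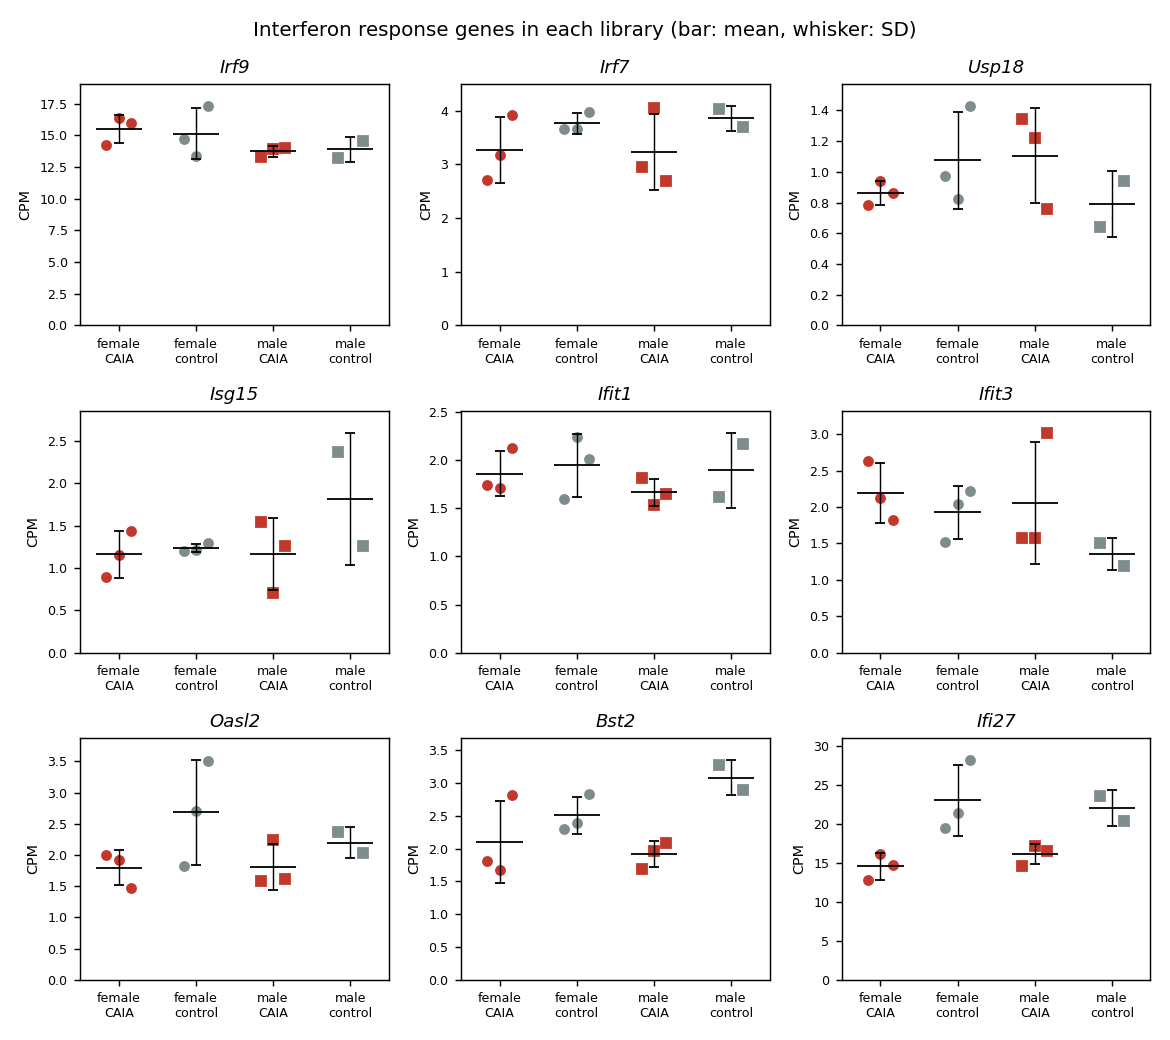
CPM of each of the 9 genes in each library (points) by sex and treatment, with linear axes from 0, the group mean (bar) and SD (whisker, n = 3, and n = 2 in male controls). CAIA libraries are red, controls grey, females circles and males squares. Ifi27 is the member whose CAIA and control libraries separate in both sexes, and Isg15 has 1 high male control at 2.37 CPM.

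Within females no member passed in edgeR (0.26% of all genes were called), with 2 members at an unadjusted p under 0.05, Ifi27 and Oasl2 (4.06% of all genes lower), and DESeq2 called 1. Of the 9, 7 were below 0 (50.4% of all genes), and the median log2 fold change was -0.21. It was -0.08 without female CAIA replicate 1, -0.07 without female control replicate 3, -0.12 without female CAIA replicate 2 and -0.33 without female CAIA replicate 3. Female control replicate 3 had the highest level of 4 of the 9 members, and the highest mean standardized level of the set. This library also had the highest summed choroid plexus markers (5647 CPM) and meningeal fibroblast markers (123 CPM), and the lowest lateral habenula markers (1087 CPM). The part of its tissue content in its member levels was not tested. Within males no member passed in edgeR or DESeq2 (0.0% of all genes in edgeR), with 2 at an unadjusted p under 0.05, Ifi27 and Bst2 (2.5% of all genes lower). Of the 9, 7 were below 0 (50.2% of all genes). The median in males was -0.26, and it was -0.17 without male control replicate 1 and -0.38 without male CAIA replicate 2.

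No difference of the CAIA effect between females and males passed for any of the 9 members in edgeR's interaction test, as for 0.0% of all genes (0 at an unadjusted p under 0.05, against 4.11% of all genes, and 0 in DESeq2). The widest gap was for Usp18, where the female minus male effect was -0.80 ± 0.50 on the log2 scale (95% interval -1.86 to 0.26). In this gene the values were -0.33 ± 0.33 in females and 0.47 ± 0.37 in males. Without female control replicate 3 the female value was -0.066, and without male control replicate 1 the male value was 0.22. For Ifi27 the difference was -0.22 ± 0.21 (interval -0.66 to 0.23), and -0.045 without female control replicate 3.

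**Figure D3:**
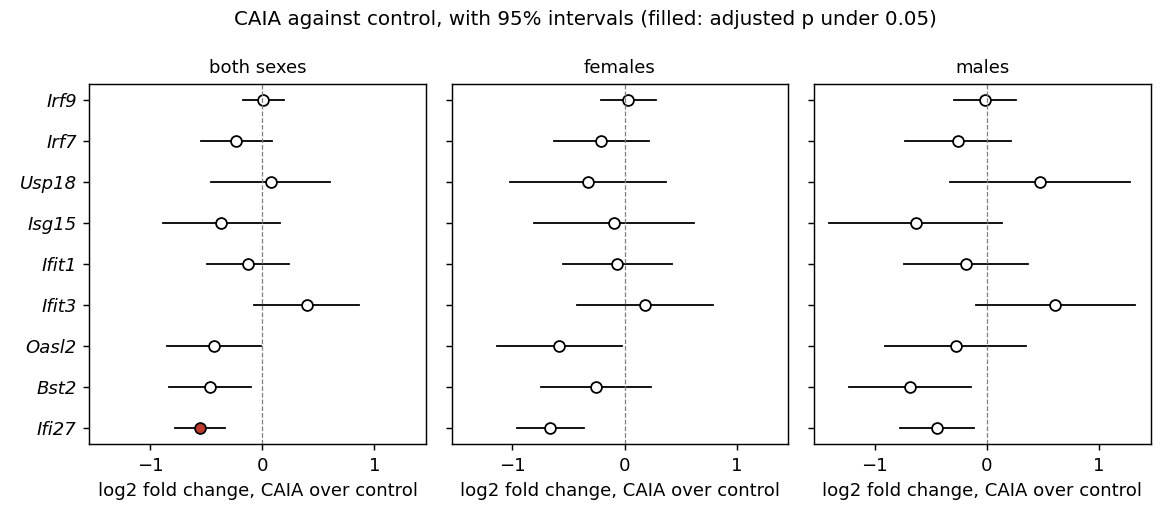
Log2 fold change of CAIA over control (points) with 95% intervals (lines) for each of the 9 genes, over both sexes (left), in females (middle) and in males (right). The filled point, Ifi27 over both sexes at -0.56, is the value that passed an adjusted p of 0.05.

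Ranked by level per length over all libraries, the order after Ifi27 was Irf9 at 2.72 ± 0.251, Bst2 at 2.59 ± 0.606, Isg15 at 1.72 ± 0.559, Ifit3 at 1.11 ± 0.312, Irf7 at 0.927 ± 0.139, Ifit1 at 0.692 ± 0.0958, Usp18 at 0.349 ± 0.0905 and Oasl2 at 0.332 ± 0.0923 CPM per kilobase (SD over 11 libraries). The lengths merge the exons of all GENCODE M21 transcripts of a gene. For Irf7 the resulting 3776 bases cover the whole gene, introns included, so the order depends on which transcripts are annotated. Ifi27 was above Irf9 and Ifit1 above Usp18 without overlap. The ranges of every other pair of neighbours overlapped. Within libraries, Irf7 exceeded Ifit1 in 11 of 11, Bst2 exceeded Isg15 in 10 and Isg15 exceeded Ifit3 in 9. Irf9 exceeded Bst2, Ifit3 exceeded Irf7 and Usp18 exceeded Oasl2 in 7 of 11 each.

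The median correlation among the 9 genes from library to library was low. Counting error lowers such correlations. It gave a coefficient of variation of 14.1% for Ifit1 and 4.44% for Ifi27, beside spreads within groups of 14.8% and 15.2%. Pairs of other genes were not compared. Over the 36 pairs, the median Pearson correlation of log2 CPM over the 11 libraries was 0.19, and 26 were positive. These libraries share 4 groups and a common scaling, and with group means removed the median was 0.19. The closest pair was Oasl2 and Ifi27 at 0.79 (0.66 with group means removed), and the most opposed was Ifit3 and Irf7 at -0.61. The genes whose pattern over the 11 libraries was most like the mean standardized level of the set, among 15548 genes of at least 1 CPM, were Arsg (Pearson r = 0.91), Gsn (0.90), Fam161a (0.89), Acad8 (0.89) and Marveld1 (0.88). Their Spearman values were 0.77 to 0.88. Picking the highest of 15548 genes over 11 libraries raises such values by itself. The mean standardized level was 1.21 in female control replicate 3 and 0.29 in the next library, so that library weighs heavily. Arsg encodes a lysosomal sulfatase, Gsn the actin-severing protein gelsolin and Acad8 a mitochondrial acyl-CoA dehydrogenase. None of the 5 passed the test of CAIA against control, with log2 fold changes from -0.40 to -0.12.

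The ligands of the pathway were barely detected. Of 18 type I interferon genes, 14, including Ifnb1, had no count in any of the 11 libraries, and the others had 1 to 4 counts in all. A count of 0 allows a level of up to 0.101 to 0.118 CPM in a library, taking 3 counts as the limit. The receptor genes were measured with more precision. Ifnar1 was at 54.2 ± 2.69 CPM in CAIA (SD, n = 6) and 53.3 ± 2.01 CPM in controls (n = 5), with a log2 fold change of 0.03 ± 0.06, and Ifnar2 was at a log2 fold change of -0.02 ± 0.10. None of the 15 receptor and JAK-STAT genes passed (0 at an unadjusted p under 0.05, and 0 in DESeq2), and their median was -0.02. The ISGF3 subunit gene Stat2 was at -0.04 ± 0.07 and the kinase gene Jak1 at 0.14 ± 0.07. The feedback inhibitor Socs3 was at -0.29 ± 0.16 and the transcription factor Irf1 at -0.20 ± 0.13.

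Of 46 other interferon-stimulated genes, 40 were tested and none passed in edgeR or DESeq2, with a median of -0.08. At an unadjusted p under 0.05, 6 of the 40 were lower and 0 higher in CAIA, where 3.92% of all genes were lower and 2.44% higher. Trim25, a ubiquitin ligase that also activates RIG-I, was at 7.59 ± 0.964 CPM in CAIA (SD, n = 6) and 9.80 ± 0.671 CPM in controls (n = 5), a log2 fold change of -0.35 ± 0.11 (edgeR adjusted p = 0.315). The membrane protein gene Ifitm2 was at -0.52 ± 0.19 (edgeR adjusted p = 0.545) and Lgals3bp, a secreted glycoprotein gene, at -0.22 ± 0.08 (edgeR adjusted p = 0.573). Of the 5 genes of the ISG15 conjugation system, none passed in edgeR or DESeq2 (1, Trim25, had an unadjusted p under 0.05). Its activating enzyme gene Uba7 was at -0.24 ± 0.15 and the ligase gene Herc6 at -0.10 ± 0.15. Trim25, Uba7 and Herc6 are also among the 46 genes above, and Usp18 is a member of the set, so these lists are not separate.

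Among 20 genes that sense microbial products or induce interferon, 19 were tested, none passed in edgeR, and the median was -0.05. At an unadjusted p under 0.05, 2, Tlr7 and Cd14, were higher and 0 lower, where 2.44% of all genes were higher and 3.92% lower. Tlr7, the endosomal receptor for single-stranded RNA, came closest, at 1.92 to 2.83 CPM in CAIA and 0.941 to 2.08 CPM in controls. Its log2 fold change was 0.79 ± 0.18 (edgeR adjusted p = 0.0690), and it passed in DESeq2 (adjusted p = 0.0371), the 1 gene of this list to do so. The 6 tested border macrophage markers were also positive, with a median of 0.42, and summed over the 7 listed to 13.2 to 18.8 CPM in CAIA and 9.22 to 14.9 CPM in controls. Their part in the Tlr7 value was not tested. Cd14, the LPS co-receptor gene, was at 0.35 ± 0.16 (edgeR adjusted p = 0.760) and the kinase gene Ikbke at -0.42 ± 0.20 (edgeR adjusted p = 0.781). Of 23 interferon gamma and MHC class I genes, 20 were tested and none passed in edgeR or DESeq2, with a median of -0.06. At an unadjusted p under 0.05, 3 were lower, where 3.92% of all genes were. The 3 were the immunity-related GTPase genes Irgm2 at -0.42 ± 0.14 and Igtp at -0.37 ± 0.14, and the peptide transporter gene Tap2 at -0.24 ± 0.10. The CAIA libraries of Irgm2 all lay below the controls, as for 1.01% of all genes.

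**Figure D4:**
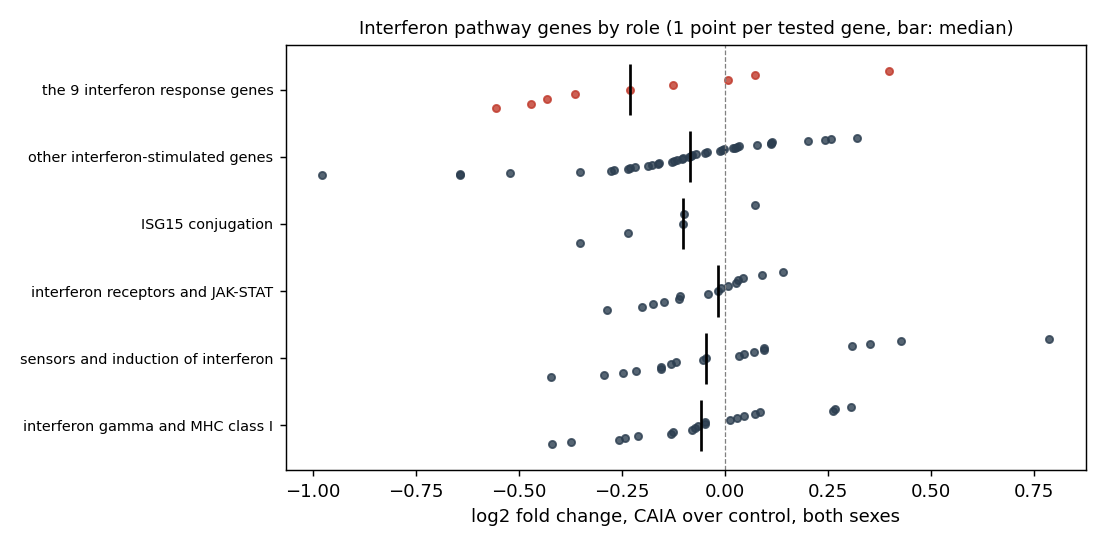
Log2 fold change of CAIA over control over both sexes (x axis) for each tested gene (points) of the interferon pathway, grouped by role (rows), with the median of each row as a bar. The red points are the 9 interferon response genes, with a median of -0.23. Usp18 also stands in the ISG15 conjugation row, as do Trim25, Uba7 and Herc6 from the row of other interferon-stimulated genes. Tlr7 is the point farthest to the right at 0.79.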

How the data were processed

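The deposited table held raw read counts per gene for 11 libraries, which the authors had not normalized. Per the submitters' processing notes, reads were trimmed, aligned and counted with tools that include cutadapt 1.9.1, HISAT2 2.0.5 and featureCounts (version 1.5.0-p3), on GRCm38. The sources used here give neither strand setting, annotation release nor the handling of multiply mapped reads. Exons of Irf9, Irf7 and Usp18 overlap Rnf31, Phrf1 and Gm44148 over 2.28%, 1.19% and 4.44% of their length in GENCODE M21, which also gave coordinates and lengths, and the release used by the authors may differ. No pair of libraries within a group agreed within counting noise, as a library deposited under 2 names would (chi-square 6.59 to 27.7 per degree of freedom). Each was counted as 1 sample, which does not show separate animals.

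The 19619 genes kept by filterByExpr, run by group, were scaled by TMM and fitted as 4 group means in edgeR 4.0.16 under R 4.3.3 (glmQLFit, robust; glmQLFTest), with all libraries in 1 fit because there are only 2 male controls. Adjusted p-values are Benjamini-Hochberg values over all genes tested, called at 0.05. A standard error is the log2 fold change over the root of F. Correlations used log2 CPM with a prior count of 1. The fit was tested on simulated data. Alternatives were RLE factors, DESeq2 1.42.0, other filters, 1 sex alone, an additive model, a replicate block and each library left out.

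The 9 genes and the lists were chosen with earlier results of these data known. Besides the 9, the named genes were up to 3 per list with the lowest p over both sexes, Ifnar1, Ifnar2, Stat2, Ifnb1 and Ttr, any list gene that passed, and the 5 genes most like the set. A further gene that the rule names is not reported here. Ifit3b and Ly6g were added after their values were seen. Figures were drawn with matplotlib 3.10.9.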

Additional observations from a re-analysis of the deposited data

Results flagged for a closer look

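Isg15 in male control replicate 1 stood at 2.37 CPM, far above the next control at 1.29 CPM, a gap of 0.924 of the range of the 5 controls. Bst2 in female CAIA replicate 3 stood at 2.82 CPM, above the next CAIA library at 2.08 CPM, a gap of 0.641 of the range of the 6 CAIA libraries. A single library was judged far from the others by Dixon's criterion at 95%, over the 5 controls and the 6 CAIA libraries of each of the 9 genes, with both sexes together. Chance gives such a result in about 1 in 20 groups, and 18 were examined. Without male control replicate 1 the log2 fold change of Isg15 over both sexes was -0.11, and without female CAIA replicate 3 that of Bst2 was -0.61.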

How the results depend on the processing

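Outside the fits that leave out a library, no log2 fold change of a named gene changed direction, and Ifi27 over both sexes passed under all 6 alternatives, between -0.57 and -0.55. The counts of genes called moved most. Over both sexes 117 genes were called, against 470 with any gene that had a count kept and 215 in DESeq2. In females these were 51, against 452 and 163, and 108 with female libraries alone. In males they were 0, against 423 and 74, with 43 for male libraries alone and 1 with the replicate block. For the difference between sexes they were 0, against 316 and 2. The member called in females was 1, Ifi27, with any gene that had a count kept and 1 in DESeq2. Tlr7 and Ttr passed over both sexes under these same alternatives (0.79 and -4.32).

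Leaving out single libraries gave 43 to 180 genes called over both sexes (fewest without female CAIA replicate 3, most without male control replicate 3), 0 to 104 in females (0 without each female CAIA library) and 0 to 142 in males (142 without male control replicate 3), and 0 to 1 members called over both sexes and 0 to 1 in females. The median of the 9 members lay between -0.33 and -0.066 in females and between -0.38 and -0.17 in males. Over both sexes the sign was not fixed for Irf9 (-0.033 to 0.060), Usp18 (-0.057 to 0.24), Ifnar2 (-0.11 to 0.10), Stat2 (-0.096 to 0.018) and Herc6 (-0.18 to 0.0047). The same held in females for Irf9 (-0.039 to 0.14), Ifit1 (-0.18 to 0.050) and Isg15 (-0.29 to 0.072), and in males for Irf9 (-0.093 to 0.068) and Ifit1 (-0.39 to 0.054). For the difference between sexes it held for Irf9 (-0.026 to 0.16), Irf7 (-0.11 to 0.24) and Ifit1 (-0.11 to 0.31). Leaving out a male control leaves 1 library in that group, which is assumed to vary like the other groups.

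Libraries with the same replicate number in different groups did not deviate together (correlations -0.20 to 0.11 over 15 pairs, and 2 of 11 libraries closest to one of their own number), so no pairing by number was seen. Deviations within a group of 2 or 3 libraries sum to 0, so the 15 correlations are not independent and a weak pairing could be missed. With the replicate block 115 genes were called over both sexes, and Ifi27 was at -0.57 (edgeR adjusted p = 0.0331). For 7 of the 9 genes, at 17 to 117 counts per library, counting error gave a coefficient of variation of 10.2 to 19.4%, beside a spread within groups of 14.8 to 30.8%.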
